A study of Mus musculus with 16 samples.

Results

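Chemokines are small secreted proteins that guide the movement of leukocytes, and chemokine receptors are the G protein-coupled receptors through which cells sense them. All genes with a symbol of the Ccl, Cxcl, Ccr or Cxcr series, together with Xcl1, Xcr1, Cx3cl1 and Cx3cr1, were taken where a probe set of the array carried that symbol alone. This rule gave 49 genes of 18194 with such a probe set, measured by 77 of 45101 probe sets. They comprised 6 homeostatic ligands, 16 inflammatory ligands, 11 ligands counted in neither or in both classes, and 16 receptors. Homeostatic ligands are made without an inflammatory stimulus and place lymphocytes in lymphoid organs, skin, gut and marrow. Inflammatory ligands are induced in macrophages, stroma and endothelium and draw monocytes, neutrophils, eosinophils and effector T cells into a tissue. In white fat they are best known from obesity, where Ccl2 recruits monocytes that carry its receptor Ccr2.

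Untreated LACA mice on standard chow, all labelled male, gave subcutaneous white fat (sWAT) and, from between the shoulder blades, brown fat (BAT), and both depots were compared on 16 Affymetrix mouse genome arrays. Each tissue had 4 replicates with 2 arrays each, which were averaged, and equal numbers in both tissues were treated as a pair because the methods describe both depots being dissected from each animal. Every value below is on the log2 scale, counted from the median of its probe set across all arrays, and for a gene it is the mean over its probe sets. Such values give differences between samples but no level of a gene. Differences are BAT minus sWAT with their standard error (n = 4 replicates per tissue), and a gene was called at an adjusted p under 0.05 in a limma fit over all 18194 genes. Both depots were extracted whole, with every cell type they held, and nothing in the labels limits the arrays to adipocytes.

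The replicates were not alike in every respect. Xist, the RNA of the inactive X chromosome, was high in 3 BAT replicates (5.74, 6.26 and 6.36 in numbers 1 to 3) and low in the remaining one (-0.26) as well as in sWAT (-0.27 to -0.11). The Y-linked gene Eif2s3y was low in the same 3 replicates (-2.94, -3.16 and -3.21), while number 4 had 0.40 and the sWAT replicates had -0.05 to 0.26. In pairs 1 to 3 the tissue and this difference in sex-linked genes therefore cannot be told apart, and values of pair 4 are given beside the results. BAT and sWAT of numbers 1 to 3 thus lacked the matching sex-linked values of a single animal. A pair below means equal replicate numbers and not tissues shown to share an animal. In addition, 2 arrays, one of sWAT replicate 3 and one of BAT replicate 1, had 5′ signals of Gapdh and Actb of -4.79 and -3.56 relative to the 3′ ones, against -1.23 to 0.46 on the other arrays. Without these 2 arrays all 23 calls described below held, and the members called were 20 lower and 6 higher in BAT. Brown adipocyte markers, including Ucp1, were higher in BAT for 7 of 7 genes, and so were 7 of 7 skeletal muscle markers, against 21.0% of all genes.

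Of the 49 genes, 18 were lower in BAT than in sWAT, 5 were higher and 26 were not called. The called genes made up 46.9% of the members, against 38.4% of all genes tested. By direction, 17.5% of all genes were called lower and 21.0% higher in BAT. At a difference of at least 2-fold 14 members were lower, against 8.0% of all genes, and 1 was higher, against 7.13% of all genes. The median difference of the members was -0.34, while that of all genes was 0.15, so that a gene near the centre of all genes stood slightly higher in BAT. The replicates of the tissues did not overlap in 14 members lower in BAT, all of them called, against 17.4% of all genes, and in 5 members higher in BAT, of which Ccl28 was not called, against 28.0% of all genes. In pair 4 alone 17 of the 18 lower genes were lower in BAT, with Cxcl10 as the exception, and 9 of the 18 were lower by at least 2-fold. All 5 higher genes were higher in pair 4 as well. Pair 4 was part of the fit that called these genes, so these counts are no separate check. In whole tissue, fewer cells of a type and less RNA per cell cannot be told apart.

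**Figure D1:**
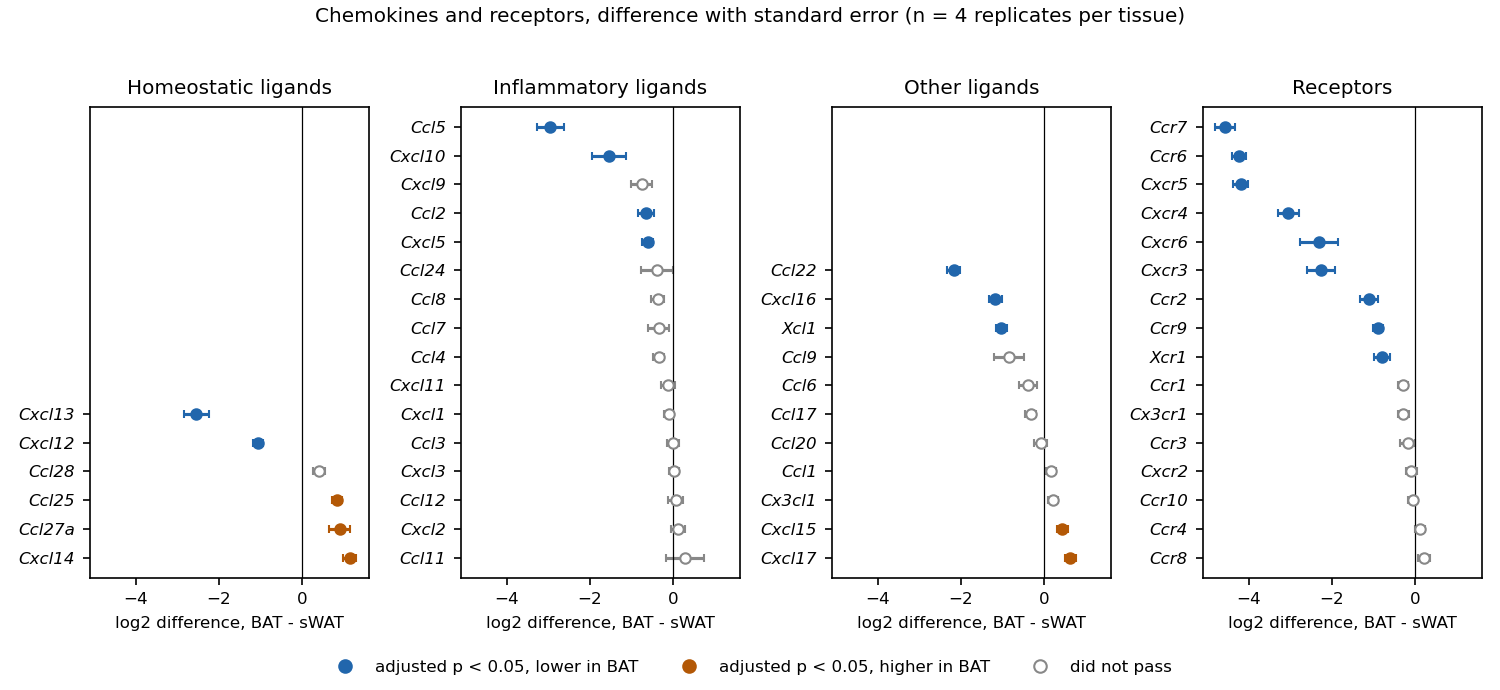
Difference between BAT and sWAT (log2, BAT minus sWAT) of each chemokine or receptor gene, by class; points are fitted differences, bars their standard error (n = 4 replicates per tissue), and filled points passed an adjusted p under 0.05. Receptors reached the lowest values, with Ccr7 at -4.57, and no receptor was called higher, while homeostatic ligands lay on both sides, from -2.54 for Cxcl13 to 1.15 for Cxcl14.

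The 4 members with the largest differences, Ccr7, Ccr6, Cxcr5 and Cxcr4, were receptors of lymphocytes, all lower in BAT. Of 16 receptors, 9 were lower in BAT, 7 of them by at least 2-fold, and 0 were higher (limma; 0 higher at an unadjusted p under 0.05 and 0 by the methods' t-test). Of all genes 17.5% were called lower and 21.0% higher. The median difference of the receptors was -0.84. Ccr7, which leads naive T cells and dendritic cells into lymph nodes, stood at -1.77, -1.86, -1.73 and -1.17 in BAT replicates 1 to 4 and at 3.46, 2.99, 2.01 and 3.28 in sWAT replicates 1 to 4. The lowest sWAT replicate thus lay more than 3 log2 units above the highest BAT replicate. The difference was -4.57 ± 0.24 (adjusted p = 4.8e-05 from limma), a 23.7-fold lower signal in BAT.

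Ccr6, a receptor of B cells and of T helper cells that make interleukin 17, stood at -1.40, -1.66, -1.79 and -1.44 in BAT and at 2.74, 2.59, 2.03 and 3.26 in sWAT. Its difference was -4.23 ± 0.16 (adjusted p = 2.1e-05 from limma). Cxcr5, which brings B cells and follicular helper T cells into follicles, stood at -1.65, -1.68, -1.65 and -1.50 in BAT and at 2.70, 2.68, 1.89 and 3.02 in sWAT. For both genes the tissues were far apart, and sWAT replicate 3, which holds an array of low 5′ signal, was the lowest of the sWAT replicates, as it was for Ccr7. The difference of Cxcr5 was -4.19 ± 0.18 (adjusted p = 2.7e-05 from limma). Cxcr4, the receptor that retains haematopoietic and immune cells in marrow and lymphoid tissue, stood at -1.28, -1.65, -1.18 and -1.32 in BAT and at 2.73, 1.18, 1.25 and 1.59 in sWAT. Here sWAT replicate 1 was above the other sWAT replicates, and the difference was -3.04 ± 0.25 (adjusted p = 1.8e-04 from limma). In pair 4 these differences were -4.45 for Ccr7, -4.70 for Ccr6, -4.52 for Cxcr5 and -2.91 for Cxcr4.

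Receptors of effector and tissue-resident T cells were also lower in BAT, with a wider spread between replicates. Cxcr6, carried by resident memory T cells and natural killer T cells, stood at -2.27, -2.29, -1.24 and -0.26 in BAT and at 1.71, 0.48, 0.26 and 0.72 in sWAT. Cxcr3, the receptor of type 1 effector T cells, stood at -1.69, -1.13, -0.56 and -1.02 in BAT and at 1.91, 0.55, 0.90 and 1.29 in sWAT. The tissues did not overlap for either gene, and for Cxcr6 the BAT replicate nearest to sWAT was replicate 4. The differences were -2.31 ± 0.45 for Cxcr6 (adjusted p = 0.0073 from limma) and -2.26 ± 0.33 for Cxcr3 (adjusted p = 0.0021 from limma). In pair 4 Cxcr6 differed by -0.98 and Cxcr3 by -2.32. Neither passed the methods' t-test, with adjusted p-values of 0.11 and 0.069.

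**Figure D2:**
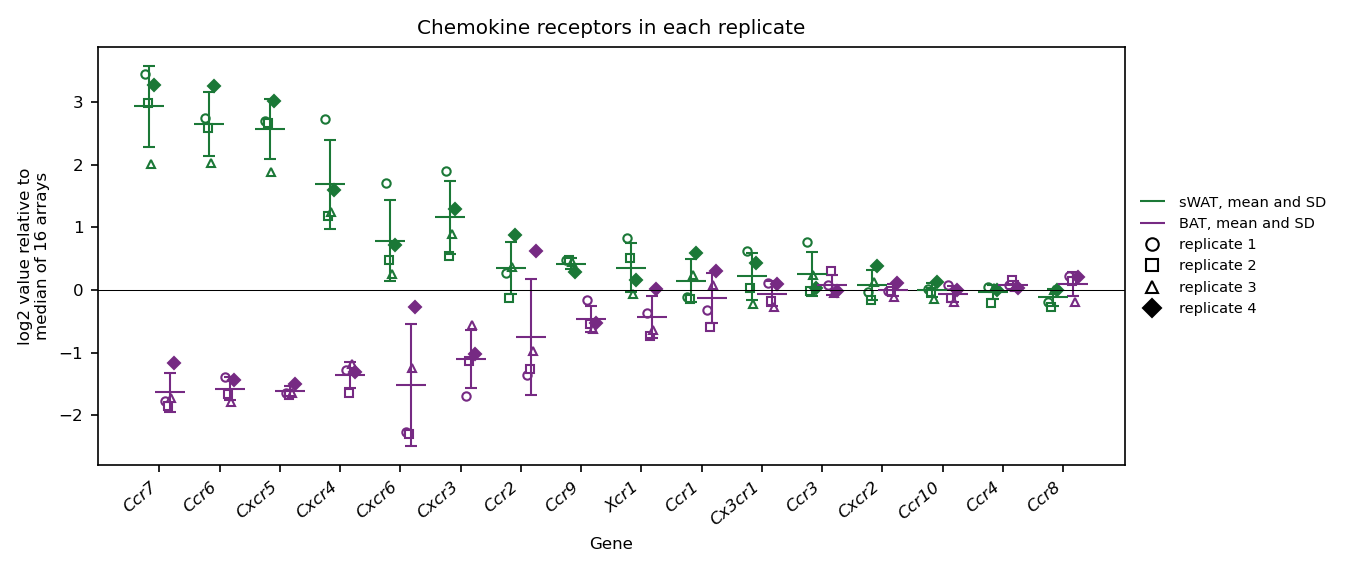
Receptor genes by replicate, in log2 units from the median of 16 arrays, with sWAT in green and BAT in purple; bars give the mean and SD of 4 replicates, and filled diamonds mark replicate 4. Ccr7, Ccr6, Cxcr5 and Cxcr4 lie between -1.86 and -1.17 in BAT and between 1.18 and 3.46 in sWAT, while the tissues overlap for Ccr2, for Xcr1 and for every receptor from Ccr1 onwards.

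The remaining receptors that passed were those of monocytes, cross-presenting dendritic cells and gut-homing lymphocytes. Ccr2, the receptor by which monocytes leave the marrow and enter tissue, stood at -1.36, -1.27, -0.97 and 0.62 in BAT and at 0.28, -0.12, 0.37 and 0.88 in sWAT. BAT replicate 4 lay above 3 of the 4 sWAT replicates, so the tissues overlapped, although BAT was the lower tissue in all 4 pairs. Its difference was -1.10 ± 0.22 (adjusted p = 0.0083 from limma), with -0.26 in pair 4, and the fit without the replicate block gave an adjusted p of 0.054. Xcr1, found on cross-presenting dendritic cells, stood at -0.37, -0.73, -0.64 and 0.01 in BAT and at 0.83, 0.51, -0.07 and 0.16 in sWAT. The tissues overlapped, and the difference was -0.79 ± 0.20 (adjusted p = 0.021 from limma), with -0.15 in pair 4. Without replicate 1 it was -0.66 (adjusted p = 0.088 from limma) and without replicate 2 it was -0.64 (adjusted p = 0.090 from limma). The call of Xcr1 was lost in 4 of 14 alternatives. Ccr9, which directs lymphocytes to the small intestine and thymus, stood at -0.16, -0.54, -0.62 and -0.53 in BAT and at 0.48, 0.48, 0.46 and 0.29 in sWAT. The tissues did not overlap, and the difference was -0.88 ± 0.13 (adjusted p = 0.0018 from limma).

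The other 7 receptors were not called. They were Ccr1 (-0.28), Cx3cr1 (-0.28), Ccr3 (-0.18), Cxcr2 (-0.09), Ccr10 (-0.05), Ccr4 (0.11) and Ccr8 (0.22). These include the eosinophil receptor Ccr3, the neutrophil receptor Cxcr2 and Cx3cr1 of patrolling monocytes and resident macrophages. Their 95% intervals lay between -0.59 for Ccr3 and 0.56 for Ccr8, so each interval lay within 1 log2 unit of no difference. Whether these genes were near background cannot be read from centred values.

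Homeostatic ligands went both ways, with 2 of 6 lower in BAT, 3 higher and 1 not called, and a median difference of 0.64. Among all genes 17.5% were called lower and 21.0% higher. Cxcl13, made by follicular stromal cells and the ligand of Cxcr5, stood at -2.01, -1.25, -0.61 and -1.46 in BAT and at 0.79, 1.08, 0.87 and 2.07 in sWAT. The tissues were separate by more than 1 log2 unit, and the difference was -2.54 ± 0.30 (adjusted p = 8.3e-04 from limma), with -3.53 in pair 4. Cxcl12, the ligand of Cxcr4 made by stromal and endothelial cells, stood at -0.85, -0.31, -0.45 and -0.58 in BAT and at 0.51, 0.70, 0.54 and 0.29 in sWAT. No replicate of one tissue reached the other, and the difference was -1.06 ± 0.13 (adjusted p = 9.3e-04 from limma). This value is a mean over 3 probe sets that differed widely, as given further on, and the median of the 3 gave -0.65.

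Cxcl14, an epithelial and stromal chemokine that brown fat is known to secrete, was the member with the highest difference in favour of BAT. It stood at 0.43, 0.92, 0.45 and 0.73 in BAT and at -0.25, -0.51, -0.64 and -0.68 in sWAT. The tissues did not overlap, and the difference was 1.15 ± 0.16 (adjusted p = 0.0016 from limma), a 2.22-fold higher signal. Ccl25, the thymic and intestinal ligand of Ccr9, stood at 0.62, 0.49, 0.52 and 0.19 in BAT and at -0.33, -0.41, -0.39 and -0.44 in sWAT. All BAT replicates were above 0 and all sWAT replicates below it, with a difference of 0.85 ± 0.12 (adjusted p = 0.0017 from limma).

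Ccl27a, a skin chemokine that attracts T cells through Ccr10, stood at -0.12, 0.50, 0.92 and 1.09 in BAT and at -0.24, -0.02, -0.59 and -0.38 in sWAT. BAT replicate 1 lay within the sWAT range and the other BAT replicates above it. Its array of low 5′ signal stood at -0.84 and its other array at 0.59. The difference was 0.91 ± 0.25 (adjusted p = 0.028 from limma), and 0.997 without the arrays of low 5′ signal (adjusted p = 0.0026 from limma). It was 0.70 without replicate 3 (adjusted p = 0.080 from limma) and 0.72 without replicate 4 (adjusted p = 0.087 from limma). The call was also lost in second arrays alone, after centring on array medians and by the methods' t-test. Ccl28, the mucosal ligand of Ccr10, stood at 0.42, 0.13, 0.09 and 0.27 in BAT and at -0.33, -0.25, 0.02 and -0.23 in sWAT. Its difference of 0.42 ± 0.14 did not pass (adjusted p = 0.054 from limma), although the tissues did not overlap, and without the replicate block it passed (adjusted p = 0.015 from limma). Among 7 epithelial markers the keratins Krt5 (0.50), Krt14 (0.48) and Krt19 (0.57) were higher in BAT, as were the ligands above, the keratins Krt8 (0.38) and Krt18 (0.28) were not called, and the adhesion genes Cdh1 (-1.29) and Epcam (-1.12) were lower. The mean of that list, in which these directions cancel, lay between -0.27 and 0.27 in BAT and between -0.01 and 0.13 in sWAT. Skeletal muscle markers had list means of 2.35 to 4.14 in BAT and of -2.29 to -1.72 in sWAT. The part of these tissues in the higher ligands was not tested. For the ligands Ccl19 and Ccl21 of Ccr7 the probe sets carry several gene symbols, so no value is given.

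**Figure D3:**
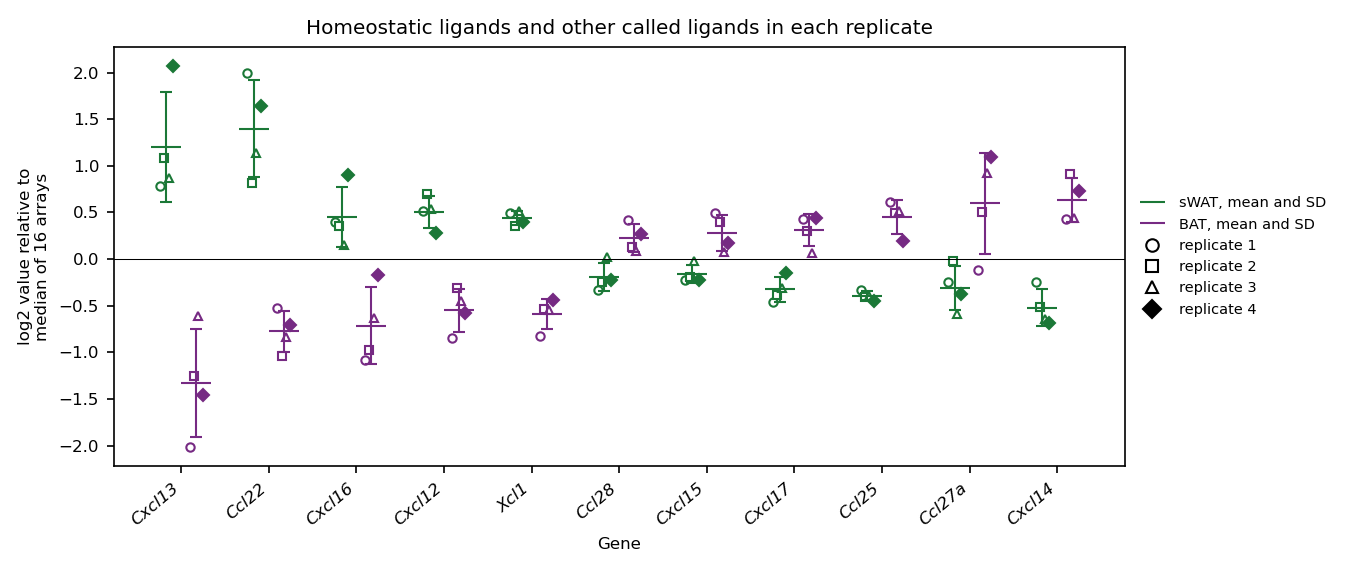
Homeostatic ligands and the called ligands of neither class by replicate, in log2 units from the median of 16 arrays, with sWAT in green and BAT in purple; bars give the mean and SD of 4 replicates. The sWAT replicates lie above those of BAT from Cxcl13 to Xcl1, and from Ccl28 to Cxcl14 they lie below, except that BAT replicate 1 overlaps sWAT for Ccl27a at -0.12.

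The promoters of the homeostatic ligands with the lowest and the highest difference are shown because these ligands moved in opposite directions. RefSeq (GRCm38.p6) places the last 230 bases before the annotated start of Cxcl13 at chr5:95956709-95956938 on the plus strand and those of Cxcl14 at chr13:56296552-56296781 on the minus strand. Capitals mark TATAAA in the former and GAAANNGAAA, an interferon-stimulated response element (ISRE) written in its simplest form, in the latter.
Cxcl13: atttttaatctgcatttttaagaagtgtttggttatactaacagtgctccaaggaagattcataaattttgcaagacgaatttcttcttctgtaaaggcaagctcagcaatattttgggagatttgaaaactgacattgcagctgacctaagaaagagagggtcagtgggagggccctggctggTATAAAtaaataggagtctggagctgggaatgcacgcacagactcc
Cxcl14: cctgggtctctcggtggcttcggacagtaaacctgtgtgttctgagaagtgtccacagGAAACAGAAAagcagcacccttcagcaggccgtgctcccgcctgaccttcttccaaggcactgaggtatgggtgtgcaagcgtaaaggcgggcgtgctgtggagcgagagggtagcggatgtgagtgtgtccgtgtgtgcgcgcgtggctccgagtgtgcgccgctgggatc
Neither window held the NF-kB motif described next.

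Inflammatory ligands are commonly induced through NF-kB, so 300-base windows around the annotated starts (250 bases before and 50 after) were searched on both strands for GGGNNNTTCC, a simple form of its binding motif, with overlapping matches counted as 1. Such windows were at hand for 36 of the 49 members. A match stood in 9 of the 36 genes (25.0%), against 6.31% of all 27025 genes with a window. By class it stood in 4 of 8 inflammatory ligands (Cxcl1, Cxcl2, Cxcl3 and Cxcl10), 3 of 9 ligands of neither class (Ccl1, Ccl9 and Ccl20), 2 of 13 receptors (Ccr3 and Ccr6) and 0 of 6 homeostatic ligands. The ISRE form stood in 2 of 36 genes (Cxcl10 and Cxcl14), against 3.99% of all genes, and TATAAA in 11 of 36 genes, against 15.7% of all genes. Of the 9 members with a GGGNNNTTCC match, Cxcl10 and Ccr6 were called lower in BAT and the other 7 were not called. Of all genes 17.5% were called lower and 38.4% in either direction. The inflammatory ligands Ccl2, Ccl5 and Cxcl5, also called lower, had no window and could not enter this count. The stretches that hold the matches in the inflammatory ligands are printed, with capitals for GGGNNNTTCC, TATAAA or GAAANNGAAA on either strand, because Cxcl1, Cxcl2 and Cxcl3, all of the same gene cluster on chromosome 5, each hold a match of the same letters, GGGAATTTCCC. They lie at chr5:90891125-90891244 (Cxcl1), chr5:90903779-90903898 (Cxcl2) and chr5:90785981-90786100 (Cxcl3) on the plus strand and at chr5:92348890-92349119 (Cxcl10) on the minus strand.
Cxcl1: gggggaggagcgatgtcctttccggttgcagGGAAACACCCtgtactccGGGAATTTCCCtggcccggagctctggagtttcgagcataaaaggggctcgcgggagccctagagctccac
Cxcl2: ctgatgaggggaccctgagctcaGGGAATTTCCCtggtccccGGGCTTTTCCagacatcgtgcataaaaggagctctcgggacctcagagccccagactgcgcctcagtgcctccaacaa
Cxcl3: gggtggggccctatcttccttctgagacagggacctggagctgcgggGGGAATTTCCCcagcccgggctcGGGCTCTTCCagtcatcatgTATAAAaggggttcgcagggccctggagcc
Cxcl10: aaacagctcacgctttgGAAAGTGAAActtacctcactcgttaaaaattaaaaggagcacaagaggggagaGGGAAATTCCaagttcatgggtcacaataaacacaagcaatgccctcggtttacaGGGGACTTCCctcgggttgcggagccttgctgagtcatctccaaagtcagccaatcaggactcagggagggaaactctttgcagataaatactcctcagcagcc
These matches are descriptions of sequence and not evidence of binding.

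Among the 16 inflammatory ligands 4 were lower in BAT, 2 of them by at least 2-fold, 12 were not called and 0 were higher (limma; 0 higher at an unadjusted p under 0.05 and 0 by the methods' t-test). Their called share was 25.0%, against 38.4% of all genes called in either direction. All of it was lower in BAT, where 17.5% of all genes were called lower and 21.0% higher. Their median difference was -0.34. Ccl5, released by activated T cells, natural killer cells and platelets, stood at -2.87, -2.29, -1.54 and -0.76 in BAT and at 1.28, 0.81, 0.97 and 1.27 in sWAT. The tissues were separate, and BAT spread more widely (SD 0.91) than sWAT (SD 0.23). The difference was -2.95 ± 0.32 (adjusted p = 5.5e-04 from limma), a 7.71-fold lower signal, with -2.03 in pair 4.

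Cxcl10, an interferon-induced ligand of Cxcr3 and the one among these with matches to both motifs, stood at -2.57, -1.97, -1.46 and 0.79 in BAT and at 0.17, -0.15, 0.32 and 0.60 in sWAT. BAT replicate 4 was the highest of all 8 replicates, and the other BAT replicates were the lowest. The difference was -1.54 ± 0.42 (adjusted p = 0.026 from limma), against 0.19 in pair 4. The call was lost without replicate 1 (-1.14, adjusted p = 0.10 from limma), without replicate 2 (-1.44, adjusted p = 0.078) or without replicate 3 (-1.46, adjusted p = 0.072), and also without the replicate block (adjusted p = 0.063). Ccl2, the main monocyte attractant, stood at -0.82, -0.77, -0.26 and 0.17 in BAT and at 0.44, 0.11, -0.12 and 0.48 in sWAT. The tissues overlapped, with BAT lower in each pair. The difference was -0.65 ± 0.20 (adjusted p = 0.041 from limma), and it was -0.44 without replicate 1 (adjusted p = 0.13) and -0.57 without replicate 2 (adjusted p = 0.14 from limma). The call was also lost in second arrays alone (adjusted p = 0.069 from limma) and after centring on array medians (adjusted p = 0.055 from limma). By the methods' t-test the adjusted p was 0.17.

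Cxcl5, a neutrophil attractant, stood at -0.21, -0.21, -0.11 and -0.24 in BAT and at 0.27, 0.35, 0.86 and 0.18 in sWAT. The tissues did not overlap, and the difference was -0.61 ± 0.14 (adjusted p = 0.012 from limma). Without replicate 2 it was -0.62 (adjusted p = 0.051 from limma). Cxcl9, an interferon-gamma-induced ligand of Cxcr3, stood at -1.15, -0.76, -0.37 and 1.11 in BAT and at 0.12, -0.19, 0.92 and 0.95 in sWAT. Like Cxcl10, it was highest in BAT replicate 4. Its difference of -0.74 ± 0.25 missed the threshold (adjusted p = 0.055 from limma), and without replicate 4 it was -1.05 (adjusted p = 0.0078 from limma).

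The remaining inflammatory ligands differed by -0.38 to 0.30 between the tissues. They include the monocyte attractants Ccl7 (-0.34), Ccl8 (-0.36) and Ccl12 (0.07), the macrophage inflammatory proteins Ccl3 (0.01) and Ccl4 (-0.34), and the eosinophil attractants Ccl11 (0.30) and Ccl24 (-0.38). The neutrophil attractants Cxcl1 (-0.10), Cxcl2 (0.12) and Cxcl3 (0.03) and the third Cxcr3 ligand, Cxcl11 (-0.11), were also close to 0. The interval was widest for Ccl11, from -0.79 to 1.38, and BAT replicates of this gene ran from -1.29 to 1.65.

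BAT replicate 4 stood apart from the other BAT replicates for most inflammatory ligands. The mean over the 16 genes was -0.71, -0.56 and -0.31 in BAT replicates 1 to 3 and 0.43 in BAT replicate 4, against 0.04, 0.16, 0.15 and 0.40 in the sWAT replicates. BAT replicate 4 was the highest BAT replicate for 13 of 16 inflammatory ligands, while it was so for 28.9% of all genes. It lay above 0, with the other BAT replicates below 0, for 8 of the 16, against 6.27% of all genes. Both of its arrays stood above every other BAT array for 11 of the 16 (Ccl2, Ccl4, Ccl5, Ccl7, Ccl8, Ccl11, Ccl12, Ccl24, Cxcl1, Cxcl9 and Cxcl10), against 14.7% of all genes, and its high values were thus not those of a single array. In pair 4 BAT was above sWAT for 8 of the 16. BAT replicate 4 was the highest BAT replicate for 6 of 11 ligands of neither class, 7 of 16 receptors and 1 of 6 homeostatic ligands, and for 9 of 11 related genes outside the symbols of the rule. No test was run on these counts, since 1 replicate is set against 3.

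Markers of other cells moved in the same replicate. BAT replicate 4 was the highest BAT replicate for 7 of 9 macrophage markers, 6 of 6 stromal progenitor markers and 5 of 5 neutrophil markers, and also for 6 of 7 skeletal muscle, 5 of 6 mast cell, 5 of 7 dendritic cell, 5 of 8 T cell and 4 of 6 natural killer cell markers. The counts were 2 of 5 for adipocyte, 2 of 7 for endothelial, 2 of 9 for lymph node vessel and stroma, 1 of 7 for epithelial, 1 of 8 for B cell and 0 of 7 for brown adipocyte markers. The mean of the macrophage list ran from -1.11 to 0.21 over the BAT replicates and from -0.10 to 0.61 over those of sWAT. The stromal progenitor list ran from -1.76 to 0.72 in BAT and from -0.0045 to 1.19 in sWAT. The mean of the brown adipocyte list was 3.16, 3.17 and 3.11 in BAT replicates 1 to 3 and 1.46 in BAT replicate 4. In the sWAT replicates it lay between -2.65 and -1.22. BAT replicate 4 is also the BAT replicate without the high Xist of the others. The part of any of these in the ligand values was not tested.

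**Figure D4:**
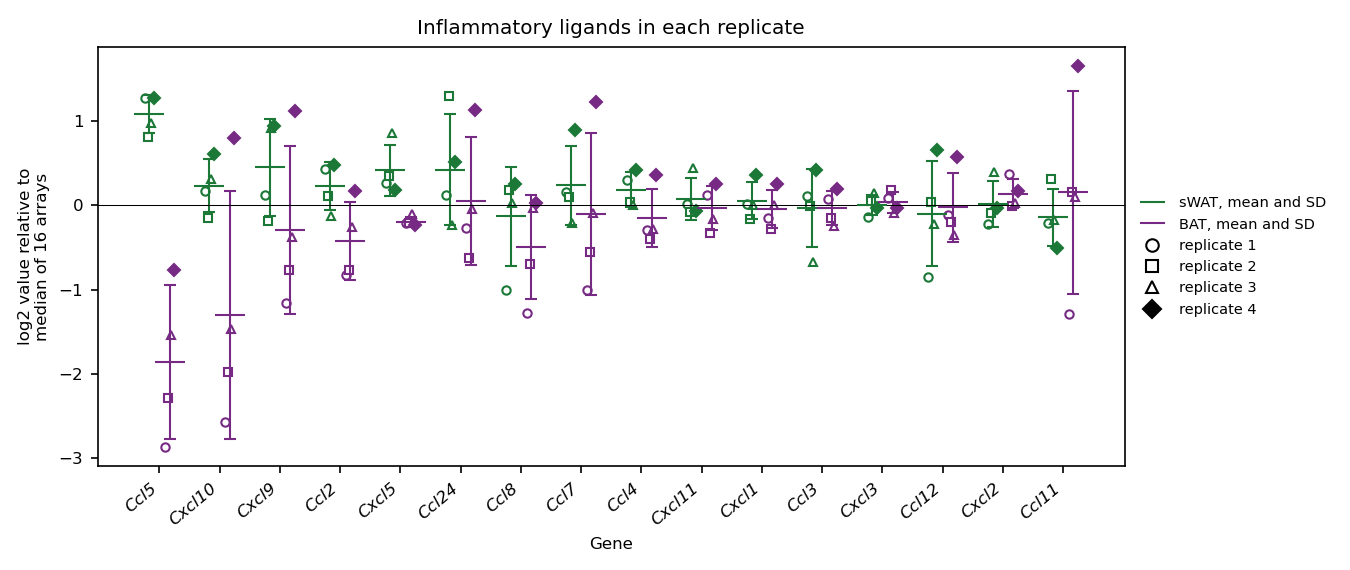
Inflammatory ligands by replicate, in log2 units from the median of 16 arrays, with sWAT in green and BAT in purple; bars give the mean and SD of 4 replicates, and filled diamonds mark replicate 4. BAT replicate 4 is the highest BAT replicate for 13 of 16 genes, and for Cxcl10 it lies at 0.79 where the other BAT replicates lie between -2.57 and -1.46.

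Of the 11 ligands of neither class, 3 were lower in BAT, 2 were higher and 6 were not called, with a median difference of -0.32. The called share of 45.5% was near the 38.4% of all genes. Ccl22, which dendritic cells release to attract regulatory and type 2 T cells through Ccr4, stood at -0.52, -1.04, -0.84 and -0.70 in BAT and at 1.99, 0.82, 1.14 and 1.64 in sWAT. The tissues were separate in all replicates, and the difference was -2.17 ± 0.15 (adjusted p = 1.0e-04 from limma), a 4.51-fold lower signal. Cxcl16, the membrane-bound ligand of Cxcr6 and a scavenger receptor of macrophages, stood at -1.09, -0.98, -0.63 and -0.17 in BAT and at 0.40, 0.36, 0.15 and 0.90 in sWAT. Its difference was -1.17 ± 0.15 (adjusted p = 0.0011 from limma). Xcl1, made by natural killer cells and activated T cells to attract Xcr1-bearing dendritic cells, stood at -0.82, -0.54, -0.55 and -0.44 in BAT and at 0.50, 0.35, 0.52 and 0.40 in sWAT. Both genes were separate between the tissues, and the difference of Xcl1 was -1.03 ± 0.13 (adjusted p = 0.0011 from limma).

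Cxcl17 and Cxcl15, chemokines known from mucosal epithelium and lung, were higher in BAT. Cxcl17 stood at 0.43, 0.30, 0.07 and 0.44 in BAT and at -0.46, -0.39, -0.31 and -0.14 in sWAT. Its difference was 0.63 ± 0.13 (adjusted p = 0.0082 from limma). Cxcl15 stood at 0.49, 0.40, 0.07 and 0.17 in BAT and at -0.22, -0.19, -0.02 and -0.22 in sWAT. In both genes BAT was above sWAT without overlap, by less than 2-fold. The difference of Cxcl15 was 0.45 ± 0.14 (adjusted p = 0.043 from limma), and the call was lost without replicate 1 (0.36, adjusted p = 0.13), replicate 2 (0.40, adjusted p = 0.17) or replicate 4 (0.46, adjusted p = 0.098 from limma). With these included, the call of Cxcl15 was lost in 6 of 14 alternatives.

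The myeloid ligands Ccl9 and Ccl6, which bind Ccr1, were not called, and their spread in BAT was wide. Ccl9 stood at -2.02, -1.20, -0.71 and 1.16 in BAT and at 0.08, 0.06, -0.51 and 0.93 in sWAT, a difference of -0.83 ± 0.36 (adjusted p = 0.11 from limma). Ccl6 stood at -1.51, -0.45, -0.20 and 1.43 in BAT and at -0.51, 0.15, 0.15 and 0.998 in sWAT, a difference of -0.38 ± 0.23 (adjusted p = 0.21 from limma). In both genes BAT replicate 4 was the highest of all 8 replicates, as for Cxcl10, and sWAT replicate 4 was the highest of sWAT. Without replicate 4 the differences were -1.19 for Ccl9 (adjusted p = 0.036 from limma) and -0.65 for Ccl6 (adjusted p = 0.035 from limma). The other uncalled ligands were Ccl17 (-0.32), Ccl20 (-0.07), Ccl1 (0.18) and Cx3cl1 (0.22).

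Set side by side with their receptors, ligands and receptors fell together in some pairs and apart in others. Both partners were lower in BAT for Cxcr5 with Cxcl13, Cxcr4 with Cxcl12, Cxcr6 with Cxcl16, Cxcr3 with Cxcl10, Ccr2 with Ccl2 and Xcr1 with Xcl1. Ccr9 was lower at -0.88 while its ligand Ccl25 was higher at 0.85. The receptor was lower and the ligand not called for Ccr6 with Ccl20, its known chemokine ligand, which stood at 0.13, -0.19, -0.06 and 0.04 in BAT and at -0.13, -0.33, 0.42 and 0.26 in sWAT. The replicates of the tissues were mixed for Ccl20, while those of Ccr6 were separate. The receptor was also lower and the ligand not called for Cxcr3 with Cxcl9 and Cxcl11 and for Ccr2 with Ccl7 and Ccl12, so that both of these receptors had 1 ligand that was lower and others that were not called. The ligand was lower and the receptor not called for Ccr4 with Ccl22, Ccr1 with Ccl5 and Cxcr2 with Cxcl5. Ccr4 stood at 0.08, 0.16, 0.05 and 0.03 in BAT and at 0.05, -0.20, 0.03 and -0.0039 in sWAT, with no separation like that of Ccl22. Ccr10 stood at 0.08, -0.13, -0.19 and 0.01 in BAT and at 0.02, -0.03, -0.14 and 0.13 in sWAT, where its ligand Ccl27a was higher in BAT. Neither partner was called for Ccr8 with Ccl1, Cx3cr1 with Cx3cl1, Ccr3 with Ccl11 or Ccl24, Cxcr2 with Cxcl1, Cxcl2 or Cxcl3, Ccr1 with Ccl3, Ccl6 or Ccl9, Ccr4 with Ccl17, and Ccr10 with Ccl28.

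Single probe sets were tested as well, with adjustment over all probe sets. Of the 23 called genes, 22 had at least 1 probe set that passed, and the exception was Ccl2, whose single probe set missed the threshold (adjusted p = 0.052 from limma). Of 77 probe sets 24 were lower in BAT, 8 were higher and 45 were not called, against 17.3% lower and 15.1% higher of all probe sets. Of the genes, 31 had 1 probe set and 18 had several, and in 5 of these some probe sets passed and others did not, in no case with calls in opposite directions. Cxcl12 was the most uneven, with differences of -2.81 ± 0.32, -0.53 ± 0.16 and 0.17 ± 0.14 in its 3 probe sets, of which the first and second passed. The 5 probe sets of Ccr9 lay between -2.80 ± 0.19 and 0.46 ± 0.19, of which 2 passed, both lower, and the median over the 5 was -0.47, where their mean was -0.88. The 4 probe sets of Ccr2 lay between -1.68 ± 0.27 and -0.19 ± 0.13, and 3 passed. For Ccl28 1 of 3 and for Cxcl15 1 of 2 probe sets passed, each higher in BAT. The probe sets of Cxcl14 differed in size but not in direction, at 1.82 ± 0.23 and 0.48 ± 0.14.

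**Figure D5:**
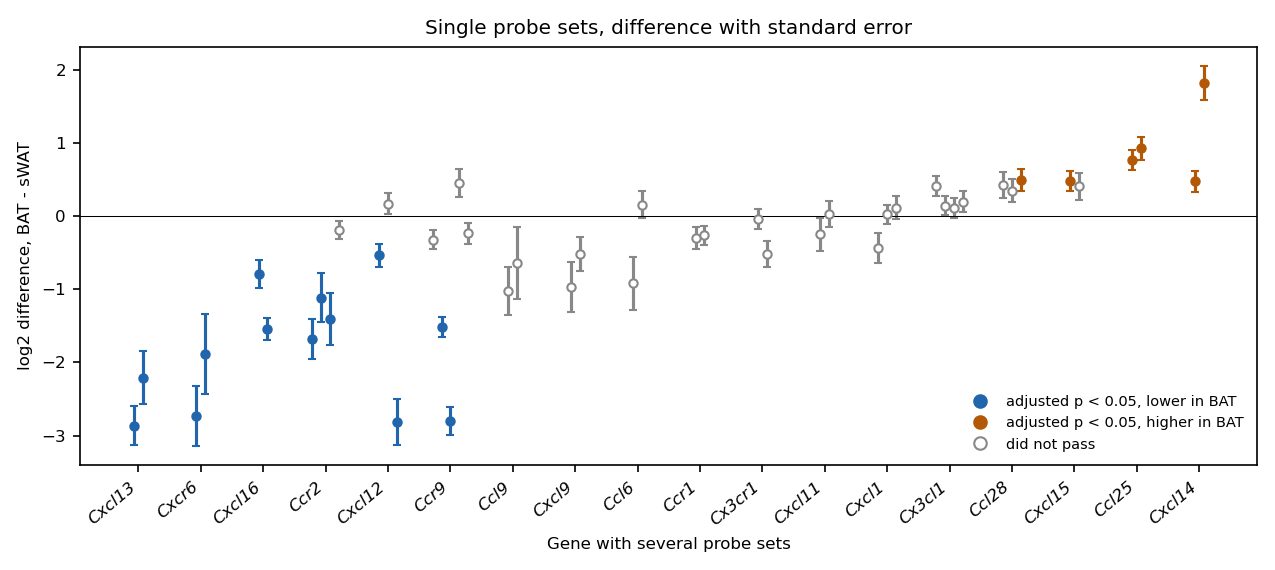
Differences (log2, BAT minus sWAT) of single probe sets for the 18 genes with several, with their standard error (n = 4 replicates per tissue) and filled where an adjusted p under 0.05 was reached over all probe sets. Probe sets of Cxcl12 run from -2.81 to 0.17 and those of Ccr9 from -2.80 to 0.46, and no gene has filled points on both sides of 0.

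Many chemokine genes lie in clusters, and within each cluster some neighbours were called and others were not. Members within 500000 bases of each other were grouped by their RefSeq positions (GRCm38.p6). The counts stand beside 17.5% of all genes called lower and 21.0% called higher. In the receptor cluster on chromosome 9 (123767211 to 124109140) 4 of 6 genes were lower in BAT, namely Ccr9, Cxcr6, Xcr1 and Ccr2, and Ccr1 and Ccr3 were not called. In the CC ligand clusters on chromosome 11 only Ccl2 of 6 genes (82035577 to 82179812) and Ccl5 of 5 genes (83525778 to 83664683) were lower. On chromosome 5 Cxcl5 was lower and Cxcl15 higher among 5 genes (90759298 to 90905938), and Cxcl10 was lower among the 3 Cxcr3 ligands (92321331 to 92363296). On chromosome 8 Ccl22 was lower at -2.17, while its neighbours Cx3cl1 and Ccl17, in a stretch of 94745684 to 94812038, were not called.

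Related genes that the symbols of the rule leave out were followed in the same fit, as atypical receptors, which bind chemokines without G protein signalling, and as ligands with other names. Of 11 such genes 3 were lower in BAT, 1 was higher and 7 were not called, a called share of 36.4% that is near the 38.4% of all genes. Ackr3, the atypical receptor that scavenges Cxcl12, stood at 0.81, 0.22, 0.71 and 0.0011 in BAT and at -1.56, -0.19, -0.37 and -1.25 in sWAT. The tissues did not overlap, and the difference was 1.28 ± 0.29 (adjusted p = 0.012 from limma), opposite to those of Cxcl12 and Cxcr4. Cklf, a chemokine-like factor, differed by -1.55 ± 0.14, Cmklr1, the chemerin receptor, by -0.59 ± 0.17, and Ackr1, the atypical receptor of venular endothelium and red cells, by -0.54 ± 0.14. The chemerin gene Rarres2 (-0.77), the platelet chemokines Ppbp (-0.42) and Pf4 (-0.13), and Ackr2 (-0.17), Ccrl2 (-0.10), Ccr1l1 (0.18) and Ackr4 (0.26) were not called. Without replicate 4 Rarres2 was at -1.06 (adjusted p = 0.020 from limma) and Ppbp at -0.93 (adjusted p = 0.044 from limma), while the call of Ackr1 was lost without replicate 1 (-0.43) or 2 (-0.53) and that of Cmklr1 without replicate 1 (-0.66), 2 (-0.42) or 3 (-0.55).

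Of 37 genes that carry or modify the signal of chemokine receptors, 34 were measured. Of these 24 were lower in BAT, 3 were higher and 7 were not called, against 17.5% lower and 21.0% higher of all genes. Coro1a, an actin regulator of leukocytes, differed by -3.81 ± 0.37, Was, the Wiskott-Aldrich protein, by -2.84 ± 0.31, Rgs1, a regulator that blunts chemokine receptor signals in lymphocytes, by -2.84 ± 0.21, and Arrb2, a beta-arrestin, by -2.36 ± 0.27. The genes higher in BAT were Rgs2, a regulator of Gq signalling, at 1.50 ± 0.18, the receptor kinase Grk3 at 1.10 ± 0.19 and the phospholipase Plcb3 at 0.61 ± 0.14. The call of Plcb3 was lost without replicate 4 (0.54, adjusted p = 0.053 from limma). Coro1a, Was and Rgs1 are known mainly from leukocytes.

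Lymphocyte markers were lower in BAT together with the receptors. All 8 measured B cell markers, all 8 T cell markers and 7 of 9 lymph node vessel and stroma markers were lower. So were 6 of 9 macrophage (1 higher), 5 of 7 dendritic cell, 4 of 6 natural killer cell and 2 of 5 neutrophil markers. The share of all genes was 17.5% lower and 21.0% higher. The mean of the B cell list lay between -2.01 and -1.36 in the BAT replicates and between 1.54 and 2.20 in those of sWAT, and that of the T cell list between -1.79 and -1.07 and between 1.49 and 2.07. The lymph node list ran from Glycam1, a mucin of the high endothelial venules of lymph nodes, at -7.91 to Ltbr at 0.60. Between them lay Cr2 (-4.72), Ltb (-4.40), Fcer2a (-2.34), Tnfsf11 (-1.82), Madcam1 (-0.96), Chst4 (-0.43) and Fut7 (-0.25). Of these genes Fut7 and Ltbr were not called. Of mast cell markers 1 of 6 and of endothelial markers 1 of 7 were called, each higher in BAT, and 4 of 6 stromal progenitor markers were lower. The lists with most genes lower went the way of the called receptors, while the mast cell and endothelial lists did not. The part of any of these lists in the receptor differences was not tested.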

How the data were processed

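RNA of sWAT and BAT was hybridized to 16 Affymetrix mouse genome arrays. The deposited values are log2 intensities that the authors summarised by RMA, quantile-normalized and centred per probe set on its median across samples, which leaves no signal level. This centring was checked in the file, where the median is 0 for each probe set. The number of arrays limits the precision. Quantile normalization assumes like distributions in both tissues and can hide a shift common to most genes.

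Of the 45101 probe sets, 34958 carry 1 gene symbol in the platform annotation, 932 several and 9211 none. Only the first were used, averaged per gene without a filter on dim probe sets, since centred values cannot be ranked by level, and all 49 member symbols were found in RefSeq. The 2 arrays of a replicate, 1 called biological and 1 technical in the labels, were averaged. For BAT minus sWAT, limma 3.58.1 (R 4.3.3) was run through lmFit and eBayes on these means. Replicate number entered as a block, and Benjamini-Hochberg adjustment ran over 18194 genes, or over 45101 probe sets. The block follows the methods, which use a paired test with both tissues of each mouse. The labels do not name the animals. Deviations of equal numbers from their tissue means correlated at -0.23, 0.064, -0.35 and 0.23. Those of unequal numbers correlated at -0.28 to 0.52, highest for BAT 1 with sWAT 3, the replicates with an array of low 5′ signal. By themselves these values do not show pairing. Xist and Eif2s3y, as given above, differed between the tissues in most equal numbers, unlike in tissues of a single animal.

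Tried as alternatives were a fit that left out the block, the methods' t-test (paired, over 4 replicate pairs), first or second arrays alone, removal of the 2 arrays of low 5′ signal, centring on array medians, a further quantile normalization, the median of probe sets, removal of the 25% of features with the smallest range, a robust variance model and leaving out each replicate. The members, the ligand classes and the lists of pathway genes and markers were chosen with earlier results of these data known. Values of every replicate are given for the called members and for some of their partners. Other partners are given by their difference, and so are all related genes. Differences are also given for the 4 signalling genes of largest difference lower in BAT and for the 3 called higher. Promoter windows came from RefSeq (GRCm38.p6). Columns of the study's own comparisons were not used. Plots were made in Python 3.11.15 with matplotlib 3.10.9.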

Additional observations from a re-analysis of the deposited data

Results flagged for a closer look

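In 98 groups of 4 replicates (49 genes in 2 tissues), the highest or lowest replicate was compared with the rest, and 3 groups held a replicate whose gap to the nearest other exceeded Dixon's critical share of the range. Chance alone flags about 1 in 20 groups. Ccl4, a ligand of activated macrophages and lymphocytes, stood at 0.36 in BAT replicate 4, far above the other BAT replicates at -0.39 to -0.28. Cxcr5 stood at -1.50 in BAT replicate 4, above the others at -1.68 to -1.65, a small gap beside its difference of -4.19 between the tissues. Ccr9 stood at 0.29 in sWAT replicate 4, below the others at 0.46 to 0.48.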

How the results depend on the processing

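Of the 23 called members, 14 kept their call under all 14 alternatives, among them Ccr7, Ccr6, Cxcr5, Cxcr4, Ccl5, Ccl22, Cxcl13 and Cxcl12, and no called member changed direction. Calls were lost in 6 of the 14 alternatives for Cxcl15, in 5 each for Ccl2, Ccl27a and Cxcl10, and in 4 for Xcr1. For Ccr2 and Cxcl5 the number was 2 each, and for Cxcr3 and Cxcr6 it was 1 each. Without the replicate block 16 members were lower and 6 higher in BAT (12 and 1 at 2-fold), 22 and 10 probe sets, and 27 and 4 pathway genes, with 6 homeostatic, 3 inflammatory and 5 other ligands and 8 receptors called, and the block moved no count by over 1.5 times. The methods' t-test called fewer: 11 members lower and 3 higher, 10 probe sets lower and 1 higher, 16 pathway genes lower and 1 higher, 1 inflammatory ligand and 5 receptors. Probe sets higher in BAT numbered 5 in first arrays alone, 5 after centring on array medians and 5 without the features of smallest range, against 8. Leaving out 1 replicate gave 14 to 21 members lower and 3 (without replicate 4) to 5 higher, 10 to 17 lower and 1 to 2 (2 without replicate 1 or 2) higher at 2-fold, 17 to 25 probe sets lower and 3 (without replicate 2; 4 without replicate 4) to 7 higher, 21 to 27 pathway genes lower and 3 to 4 higher, 4 to 5 homeostatic, 1 to 5 inflammatory (2 without replicate 1, 1 without replicate 2) and 4 to 6 other ligands, and 8 to 9 receptors. The median of all genes was 0.15, or 0.09 after centring on array medians and 0.11 after quantile normalization. The cause of these changes was not tested.

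Directions turned only in genes that were not called. In first arrays alone Ccl12 was at -0.18, Ccr10 at 0.059, Cxcl2 at -0.073 and Cxcl3 at -0.019, and in second arrays alone Ccl20 was at 0.037, Ccr4 at -0.013, Cxcl11 at 0.10 and Pf4 at 0.032. Without the 2 arrays of low 5′ signal Ccl3 was at -0.084, after centring on array medians Ccl3 was at -0.056 and Cxcl3 at -0.028, after quantile normalization Ccl3 was at -0.067 and Cxcl3 at -0.035, and by the median of probe sets Cxcl1 was at 0.010. Leaving out 1 replicate spread Ccl11 from -0.32 (without replicate 4) to 0.76, Ccl12 from -0.15 (without 1) to 0.17, Ccl20 from -0.18 to 0.059 (without 3), Ccl24 from -0.71 to 0.14 (without 2), Ccl3 from -0.14 (without 3) to 0.084, Cxcl11 from -0.25 to 0.054 (without 3), Cxcl2 from -0.033 (without 1) to 0.29, Cxcl3 from -0.031 (without 1) to 0.12, Ppbp from -0.93 to 0.022 (without 3), Grk5 from -0.069 (without 4) to 0.53 and Rgs16 from -0.14 (without 2) to 0.37.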
